A study of Saccharomyces cerevisiae with 18 samples.

Results

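The a-cell mating mRNAs are 7 budding yeast transcripts, MFA1 (YDR461W), MFA2 (YNL145W), STE2 (YFL026W), STE6 (YKL209C), BAR1 (YIL015W), AGA1 (YNR044W) and AGA2 (YGL032C). They were picked by locus name, and all 7 of the 7127 features in the deposited counts were found and passed the filter on low counts. They were followed through poly(A)-selected RNA that came down with purified nuclear pore complexes (NPCs). Every library is from strain W303, harvested from asynchronous log-phase YPD cultures and cryoground. IgG was the matrix for the basket-containing pores and for their background purification, the PrA control. A GFP nanobody was the matrix for the basket-less pores, for all NPCs and for the GFP control. The input is RNA of the whole extract. Each of the 6 groups has 3 libraries, 18 in all. The sources used here do not give the tagged proteins, any other allele of the strains, the mating type, or whether replicates were separate cultures. The p-values therefore cover the spread of these libraries alone, and that spread may be technical.

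Yeast cells of mating type a find a partner by secreting a-factor, a short lipid-modified peptide, while sensing the alpha-factor of the opposite type. MFA1 and MFA2 encode a-factor precursors, STE6 the ATP-driven exporter of a-factor, STE2 the alpha-factor receptor, BAR1 a secreted protease that destroys alpha-factor, and AGA1 and AGA2 the anchor and the binding subunit of a-agglutinin, the cell wall adhesin joined by disulfide bonds. In alpha cells most of these genes are held silent by the alpha2 repressor, which binds with Mcm1 at an operator upstream, whereas AGA1 is expressed by both cell types, and Ste12 raises many mating genes through pheromone response elements.

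The transcripts differ greatly in size. By the R64 reference the coding sequences, each in 1 unbroken part, are MFA1 at chrIV:1385176-1385286 (plus strand, 111 bases), MFA2 at chrXIV:352414-352530 (plus, 117 bases), AGA2 at chrVII:436570-436833 (minus, 264 bases), STE2 at chrVI:82580-83875 (plus, 1296 bases), BAR1 at chrIX:322342-324105 (plus, 1764 bases), AGA1 at chrXIV:703699-705876 (plus, 2178 bases) and STE6 at chrXI:42423-46295 (minus, 3873 bases). No gene annotated in that reference overlaps any of them. It matched 6047 of the 7127 counted features, and the unmatched ones were not checked for overlap. The a-factor genes are shown in full because they encode nearly the same pheromone from distinct mRNAs, with the codons of the mature peptide in capitals (RefSeq, R64, coding strand):
MFA1: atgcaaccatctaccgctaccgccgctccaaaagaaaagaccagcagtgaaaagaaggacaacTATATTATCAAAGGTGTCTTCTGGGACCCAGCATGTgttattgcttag
MFA2: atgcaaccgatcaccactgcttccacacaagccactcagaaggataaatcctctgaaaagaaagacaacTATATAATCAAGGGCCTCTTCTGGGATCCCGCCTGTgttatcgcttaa
The capitals end at the cysteine that receives the lipid. Of the 12 mature residues, 11 are identical, and the substitution from MFA1 to MFA2 is V6L, counted from 1 at the first mature residue. Over the same stretch 29 of 36 bases are identical, and the longest run shared by both coding sequences is 11 bases. Every 50-base word of MFA1, MFA2, STE2, STE6, BAR1 and AGA2 was found once in the genome, and 99.9% of those of AGA1.

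The upstream regions show what 6 of the genes share that AGA1 lacks. The operator was searched as TGTNNNNNCCNNNNNNGG on both strands in the 500 bases before each start codon. It was present upstream of 6 of the 7 genes and of 2.75% of 6000 genes in the reference. AGA1 holds no match to these letters in that window. The windows are printed to show the letters that these 6 genes share, with the fixed bases of the search in capitals, on the strand of the match (RefSeq, R64):
MFA1, chrIV:1384942-1384971: tgTGTaattaCCcaaaaaGGaaatttacat
MFA2, chrXIV:352163-352192: caTGTatttaCCtattcgGGaaatttacat
STE2, chrVI:82352-82381: caTGTacttaCCcaattaGGaaatttacat
STE6, chrXI:46478-46507: caTGTaattaCCtaatagGGaaatttacac
BAR1, chrIX:322078-322107: caTGTaattaCCgtaaaaGGaaattacatg
AGA2, chrVII:437102-437131: caTGTaatttCCgaatacGGtaattacacg
The matches of MFA1, MFA2, BAR1 and STE6 are on the strand of their gene, as is that of AGA2, whereas that of STE2 is on the opposite strand. BAR1 and AGA2 also match on the other strand at the same place. The pheromone response element, searched as TGAAACA on both strands in the same windows, is present upstream of 7 of the 7 genes and of 721 of the 6000 (12%). These are matches of letters, and binding was not measured.

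The libraries hold 10592840 to 16620246 counts. Values are CPM, the usual scaling of counts to library size, with edgeR's TMM factors applied, given as mean ± SD of 3 libraries. They are shares within a library, so the amounts of RNA recovered were not compared, and fewer transcripts at pores cannot be told apart from more of all other RNA. Replicate 3 of the PrA control stood apart from its partners, with a chi-square per degree of freedom of 18.7 and 20.4 against them, where other pairs of replicates ran from 1.58 to 9.54. Changes of call without that library are stated, and its effect on log2 fold changes is given for some members only.

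The a-cell label was checked first. In the input the 7 mRNAs ran from 28.7 ± 3.96 CPM for MFA1 to 397 ± 24.4 CPM for STE2, and together they were 0.0936 ± 0.00721% of counts. The other a-specific genes, ASG7 and AFB1, had group means of 7.06 to 18.2 and 26.8 to 59.6 CPM. Of the alpha-specific genes, the alpha-factor receptor STE3 had group means of 1.56 to 4.90 CPM, and the alpha-factor genes MF(ALPHA)1 and MF(ALPHA)2 had 0.217 to 0.966 and 2.16 to 15.8 CPM. SAG1, which encodes the alpha-agglutinin, was not near 0, with group means of 24.7 to 54.8 CPM. Whether the counting used strand is not known from the sources used here, so sense and antisense reads at SAG1 cannot be told apart. The rows MATALPHA1 and MATALPHA2 were at 0 counts in all 18 libraries. Their sequence is repeated at the silent HML locus, and how reads that fit several places were handled is not known from the sources used here, so these zeros do not give the mating type. HMRA1 had group means of 7.89 to 33.5 CPM.

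**Figure D1:**
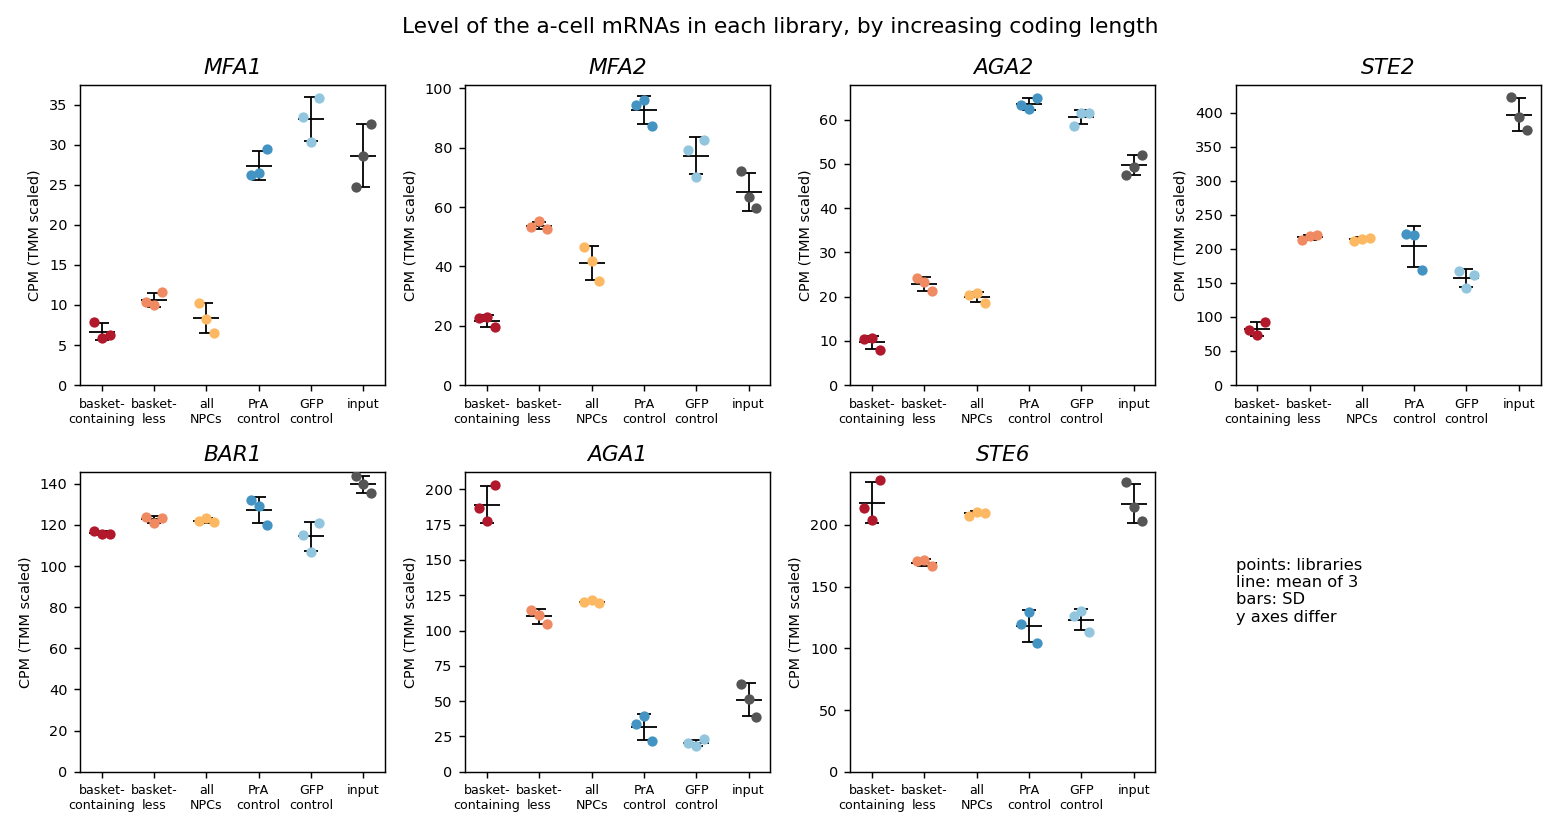
CPM of each a-cell mRNA in each of 18 libraries (points), with mean and SD of 3 (black), by group, panels ordered by coding length. MFA1, MFA2 and AGA2 are lower in every pore library than in every control library, AGA1 is higher in every pore library, and the group means of BAR1 span 114 to 140 CPM.

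Basket-containing pores over the PrA control asks which a-cell mRNAs take a larger share in the pore purification than in the background on the same matrix. AGA1 and STE6 were higher, and MFA1, MFA2, AGA2, STE2 and BAR1 were lower. Of all 6429 genes tested, 43.8% were called higher and 46.5% lower in this comparison, so 2 higher and 5 lower of 7 is not a result about the group as a whole. The members spanned from -2.72 to 2.56 on the log2 scale. Their median was -1.31, beside -0.07 over all genes. A call is an adjusted p below 0.05 in edgeR's quasi-likelihood test over all genes, and errors of log2 fold changes are standard errors.

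Both a-factor mRNAs were lower at the pores. MFA1 had 7.88, 5.92 and 6.23 CPM with basket-containing pores, from 58 to 103 counts a library. It had 26.3, 26.4 and 29.5 CPM in the PrA control. No library of the pores reached any of the control, and MFA1 was 4.05-fold lower at the pores (log2 -2.02 ± 0.14, adjusted p = 6.57e-13). MFA2 had 22.7, 22.9 and 19.4 CPM with basket-containing pores against 94.6, 96.0 and 87.4 CPM in the control. It was 4.28-fold lower (-2.10 ± 0.09, adjusted p = 2.41e-16), much like MFA1, and the ratio of MFA2 to MFA1 counts within a library was 3.29 ± 0.51 at these pores and 3.40 ± 0.38 in the control.

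AGA1 and AGA2, whose proteins form 1 adhesin, went opposite ways. AGA1 had 186, 177.5 and 203 CPM with basket-containing pores and 33.7, 39.2 and 21.5 CPM in the PrA control, where the lowest value is that of replicate 3. It was 5.92-fold higher at the pores (2.56 ± 0.17, adjusted p = 1.96e-09), and 2.37 on the log2 scale without that library. AGA2 had 10.4, 10.6 and 7.87 CPM at the pores against 63.4, 62.4 and 65.0 CPM in the control. It was 6.59-fold lower (-2.72 ± 0.09, adjusted p = 3.28e-20), the furthest below 0 of the 7.

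The receptor and the exporter, both membrane proteins, also parted. STE2 had 80.6, 73.1 and 92.7 CPM at basket-containing pores and 222, 220 and 169.1 CPM in the PrA control, again with replicate 3 lowest. The groups did not overlap, and STE2 was 2.49-fold lower (-1.31 ± 0.10, adjusted p = 1.17e-09). Without that library STE2 was -1.43. STE6 had 214, 204 and 236 CPM at the pores against 120, 130 and 105 CPM in the control, and was 1.84-fold higher (0.88 ± 0.07, adjusted p = 5.35e-11). Without replicate 3 of the PrA control STE6 was 0.80. With upper-quartile factors the median of all genes moved from -0.07 to -0.41 in this comparison, and STE6 became 0.54. BAR1 was nearly level, with 117, 116 and 115 CPM against 132, 129 and 120 CPM (-0.13 ± 0.05, adjusted p = 0.0116). The call of BAR1 was lost without replicate 3 of the basket-containing pores (adjusted p = 0.0514) and without replicate 1 of the PrA control (adjusted p = 0.0644). Its value became -0.17 without replicate 3 of the PrA control and -0.48 with upper-quartile factors.

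Basket-less pores and all NPCs, both over the GFP control, placed AGA1 highest and MFA1 lowest of the 7. These comparisons share the GFP control libraries and so are not independent. Over the GFP control, basket-less pores had 3 members higher (AGA1, STE2, STE6), where 47.1% of all genes were higher, and 3 lower (MFA1, MFA2, AGA2), where 35.5% were lower. All NPCs had the same 3 higher, against 46.9% of all genes, and the same 3 lower, against 37.6%. BAR1 was not called in either. With upper-quartile factors, higher genes fell from 57.0 to 41.3% of the calls for basket-less pores and from 55.5 to 42.1% for all NPCs, and the medians of all genes moved from 0.11 to -0.16 and from 0.11 to -0.18.

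AGA1 was again highest above the control. It had 115, 111 and 105 CPM at basket-less pores and 120, 121 and 119 CPM with all NPCs, against 20.0, 18.4 and 23.0 CPM in the GFP control. The log2 fold changes were 2.43 ± 0.19 (adjusted p = 1.66e-08) and 2.55 ± 0.18 (adjusted p = 7.14e-09), or 5.38-fold and 5.88-fold. AGA2 had 24.2, 23.3 and 21.2 CPM at basket-less pores and 20.3, 20.8 and 18.6 CPM with all NPCs, against 58.7, 61.4 and 61.5 CPM in the control. It was 2.64-fold lower at basket-less pores (-1.40 ± 0.08, adjusted p = 6.49e-15) and 3.05-fold lower with all NPCs (-1.61 ± 0.08, adjusted p = 3.37e-16).

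The a-factor mRNAs, whose fold changes were alike on IgG, had less similar fold changes on the GFP nanobody. MFA1 had 10.4, 9.96 and 11.6 CPM at basket-less pores and 10.3, 8.30 and 6.52 CPM with all NPCs, against 33.5, 30.3 and 35.9 CPM in the GFP control. MFA2 had 53.4, 55.1 and 52.8 CPM at basket-less pores and 46.5, 41.7 and 35.1 CPM with all NPCs, against 79.3, 70.3 and 82.6 CPM in the control. Neither gene's pore and control libraries overlapped. MFA1 was 3.12-fold lower at basket-less pores (-1.64 ± 0.13, adjusted p = 9.83e-12) and 3.97-fold lower with all NPCs (-1.99 ± 0.13, adjusted p = 2.96e-13). MFA2 was 1.44-fold lower (-0.52 ± 0.08, adjusted p = 4.90e-06) and 1.88-fold lower (-0.91 ± 0.09, adjusted p = 7.48e-10). With upper-quartile factors MFA2 at basket-less pores became -0.79.

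STE2, lower at basket-containing pores, was slightly higher here. It had 213, 219 and 220 CPM at basket-less pores and 211, 215 and 217 CPM with all NPCs, against 167.8, 143 and 162 CPM in the GFP control. The log2 fold changes were 0.46 ± 0.09 (adjusted p = 0.000236) and 0.44 ± 0.09 (adjusted p = 0.000322). With upper-quartile factors the values were 0.19 (adjusted p = 0.0602) and 0.16 (adjusted p = 0.123), and neither was called. STE6 had 170, 171.7 and 166.5 CPM at basket-less pores and 207, 211 and 210 CPM with all NPCs, against 126, 131 and 113 CPM (0.46 ± 0.07, adjusted p = 3.18e-06, and 0.76 ± 0.07, adjusted p = 8.61e-10). With upper-quartile factors these were 0.19 and 0.48. BAR1 stayed at 121 to 124 CPM at basket-less pores and 121 to 123 CPM with all NPCs, beside 107 to 121 CPM in the control. Its log2 fold changes were 0.10 ± 0.05 (adjusted p = 0.0556) and 0.09 ± 0.05 (adjusted p = 0.0690). Without replicate 3 of the GFP control BAR1 was called higher in both, at 0.14, without replicate 3 of the PrA control likewise, at 0.10 and 0.09, and with upper-quartile factors it was called lower in both, at -0.17 and -0.19.

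**Figure D2:**
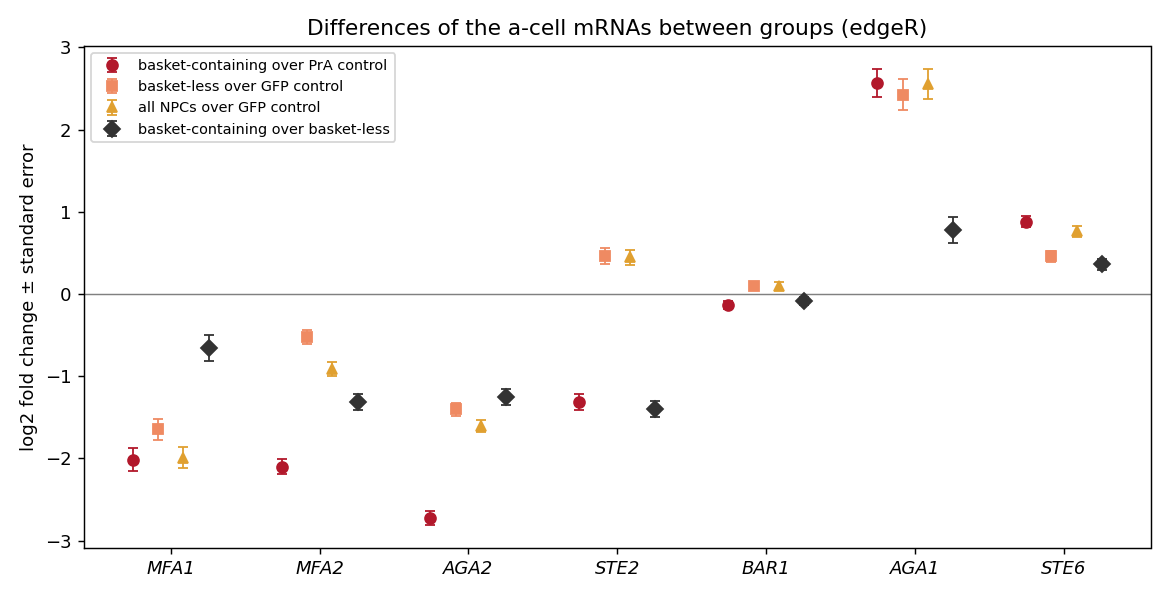
Log2 fold change ± standard error (edgeR, 3 libraries a group) of each a-cell mRNA in 4 comparisons, ordered by coding length. AGA1 lies between 2.43 and 2.56 over each control, AGA2 and MFA1 lie at -1.40 or lower over each control, and STE2 lies at -1.31 for basket-containing pores over their control and at 0.46 and 0.44 for the other pore groups over theirs.

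The matrix differs between basket-containing and basket-less pores, so the contrast between them was taken directly and also after subtracting each matrix's control. Directly, AGA1 and STE6 were higher at basket-containing pores, where 40.3% of all genes were higher, and MFA1, MFA2, STE2 and AGA2 were lower, where 42.2% were lower. STE2 differed most, 2.64-fold lower at basket-containing pores (-1.40 ± 0.10, adjusted p = 7.67e-10). MFA2 was 2.48-fold lower (-1.31 ± 0.10), AGA2 2.37-fold lower (-1.25 ± 0.10) and MFA1 1.57-fold lower (-0.65 ± 0.16, adjusted p = 0.000678). Without replicate 3 of the basket-containing pores these became -1.11, -0.99 and -0.47 (adjusted p = 0.0235 for MFA1), and all were still called lower. AGA1 was 1.72-fold higher (0.78 ± 0.15, adjusted p = 0.000313) and STE6 1.29-fold higher (0.36 ± 0.07). Genes with coding lengths over 3000 bases had a median of 0.69 in this contrast, and STE6 lay above 30.1% of them. BAR1 was not called (-0.08 ± 0.05, adjusted p = 0.131).

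With the controls subtracted, STE6 was higher, against 36.6% of all genes, and MFA2, STE2, BAR1 and AGA2 were lower, against 39.5%. The difference of log2 fold changes was -1.78 ± 0.14 for STE2 (adjusted p = 3.10e-09), -1.57 ± 0.13 for MFA2 (adjusted p = 7.88e-11) and -1.32 ± 0.12 for AGA2 (adjusted p = 2.70e-10). It was 0.42 ± 0.10 for STE6 (adjusted p = 0.000544) and -0.23 ± 0.07 for BAR1 (adjusted p = 0.00311). Without replicate 3 of the PrA control it was -1.89 for STE2 and 0.34 for STE6. With all libraries, genes with coding lengths over 3000 bases had a median difference of 0.63, and STE6 lay above 35.2% of them. Without replicate 3 of the basket-containing pores BAR1 became -0.11 (adjusted p = 0.185) and lost its call. With the same library left out, STE2 became -1.75, MFA2 -1.38 and AGA2 -1.07, all still called lower. AGA1, 0.14 ± 0.26 (adjusted p = 0.642), and MFA1, -0.37 ± 0.20 (adjusted p = 0.0884), were not called. MFA1 was called lower without replicate 1 of the basket-containing pores, at -0.53 (adjusted p = 0.0336), and with upper-quartile factors, at -0.45. With its standard error of 0.26, a difference in AGA1 larger than that could also have gone uncalled. MFA1 and MFA2 thus differ in call here, and their difference from each other was compared as a ratio within libraries.

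Basket-less pores and all NPCs share a matrix. MFA2 was higher at basket-less pores (0.39 ± 0.09, adjusted p = 0.00119), where 20.3% of all genes were higher. STE6 was lower (-0.30 ± 0.07, adjusted p = 0.00104), where 22.8% were lower. Genes with coding lengths over 3000 bases had a median of -0.29 in this comparison, and STE6 lay above 44.8% of them. MFA2 lay above 87.0% of the genes of up to 300 bases, whose median was 0.16. STE2 had 217 ± 3.64 and 214 ± 2.67 CPM, BAR1 123 ± 1.74 and 122 ± 1.03 CPM, and neither was called. AGA1, AGA2 and MFA1 were not called either, with log2 fold changes of -0.13 ± 0.16, 0.20 ± 0.09 and 0.35 ± 0.15. AGA2 was called higher without replicate 3 of the basket-containing pores (0.21), of the basket-less pores (0.26) or of the PrA control (0.20), and with upper-quartile factors (0.22). MFA1 was called higher without replicate 1 of all NPCs (0.52) or replicate 3 of the PrA control (0.35).

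Ratios within a library do not depend on the scaling factor. AGA1 counts per AGA2 count were 17.9, 16.7 and 25.8 at basket-containing pores, 4.74, 4.76 and 4.93 at basket-less pores and 5.93, 5.85 and 6.41 with all NPCs. They were 0.532, 0.629 and 0.330 in the PrA control, 0.342, 0.299 and 0.374 in the GFP control, and 1.31, 1.05 and 0.746 in the input. AGA1 thus outnumbered AGA2 in every pore library and AGA2 outnumbered AGA1 in every control library, though AGA1 is the longer by far. On the log2 scale the mean ratio rose by 5.37 from the PrA control to basket-containing pores, by 3.84 from the GFP control to basket-less pores and by 4.17 to all NPCs. The exact two-sided permutation p was 0.1 in each, the smallest that 3 libraries against 3 can give.

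MFA2 counts per MFA1 count were 2.88, 3.86 and 3.12 at basket-containing pores against 3.60, 3.63 and 2.96 in the PrA control, and these groups overlapped (exact permutation p = 0.9). They were 5.15, 5.54 and 4.56 at basket-less pores and 4.52, 5.02 and 5.39 with all NPCs, against 2.37, 2.32 and 2.30 in the GFP control. All 6 of these pore libraries lay above the control, with exact permutation p = 0.1 for each group, again the smallest possible. In the input the ratio was 2.92, 2.22 and 1.83. On the log2 scale it averaged 1.71 at basket-containing and 2.34 at basket-less pores, without overlap (exact permutation p = 0.1). The matrices differ there, and every library of the PrA control also lay above those of the GFP control.

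**Figure D3:**
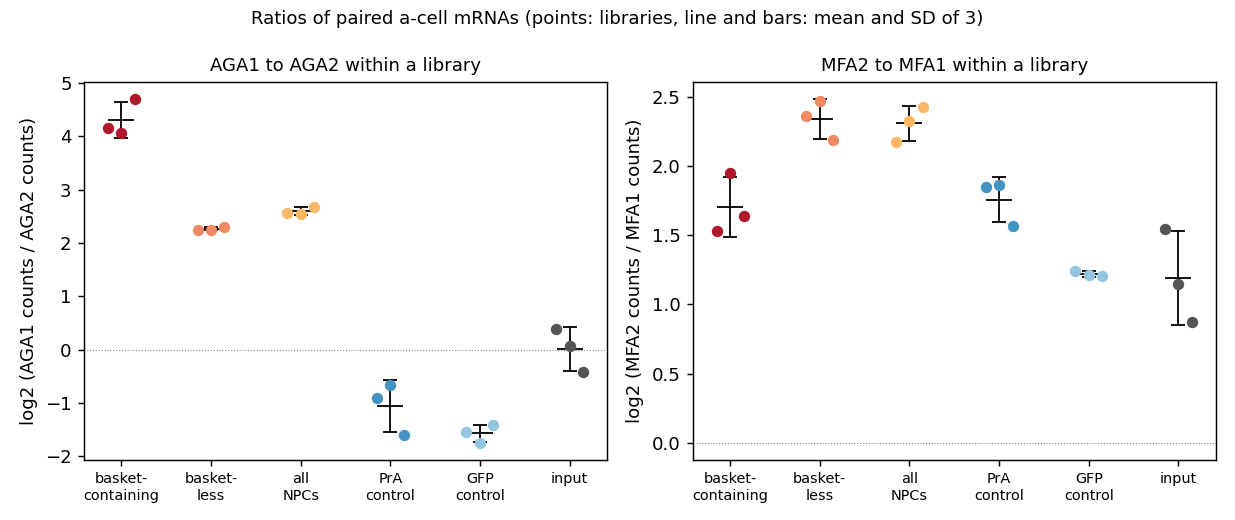
Log2 ratio of AGA1 to AGA2 counts (left) and of MFA2 to MFA1 counts (right) in each library (points), with mean and SD of 3, by group. The AGA1 to AGA2 ratio averages 4.31 at basket-containing pores and -1.06 in the PrA control, whereas the MFA2 to MFA1 ratio averages 1.71 and 1.76 there and separates on the GFP nanobody.

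Against the input, AGA1 was the only member called higher in any pore group. Basket-containing pores over the input had 1 member higher, against 43.9% of all genes, and 5 lower, against 45.5%. Basket-less pores had 1 higher, against 44.0%, and 6 lower, against 36.1%, and all NPCs 1 higher, against 44.6%, and 5 lower, against 37.1%. The 3 comparisons share the input libraries. AGA1 had 62.4, 51.7 and 38.9 CPM in the input, and was 3.71-fold higher at basket-containing pores (1.89 ± 0.17), 2.16-fold higher at basket-less pores (1.11 ± 0.17) and 2.36-fold higher with all NPCs (1.24 ± 0.17). STE2 had 423, 394 and 375 CPM in the input, above every other library of the study. It was 4.83-fold lower at basket-containing pores (-2.27 ± 0.10, adjusted p = 4.72e-13), 1.83-fold lower at basket-less pores and 1.85-fold lower with all NPCs.

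STE6 was not called over the input at basket-containing pores (0.01 ± 0.07, adjusted p = 0.942) or with all NPCs (-0.05 ± 0.07, adjusted p = 0.470). With upper-quartile factors it was called lower in both, at -0.33 and -0.32. With all NPCs it was also called lower under DESeq2 size factors (-0.16) and without replicate 3 of the basket-containing pores (-0.14). MFA2 at basket-less pores over the input (-0.28 ± 0.09) lost its call without replicate 1 of the input (adjusted p = 0.0556). BAR1 was lower in all 3 pore groups, by 1.20-fold, 1.14-fold and 1.14-fold. With upper-quartile factors, higher genes fell from 55.0 to 39.2% of the calls for basket-less pores over the input and from 54.6 to 40.2% for all NPCs.

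The controls also differed from the input, and these values bear on every ratio over a control. In the PrA control over the input, MFA2 and AGA2 were higher, against 37.5% of all genes, and STE2, STE6, BAR1 and AGA1 were lower, against 41.2%. In the GFP control over the same input libraries the same pair was higher, against 37.2%, and the same 4 lower, against 42.4%. AGA1 was 1.59-fold lower in the PrA control (-0.67 ± 0.18, adjusted p = 0.00409), and its libraries overlapped those of the input. Without replicate 3 of that control it was -0.48. AGA1 was 2.49-fold lower in the GFP control (-1.32 ± 0.20, adjusted p = 2.81e-05). STE6 was 1.84-fold and 1.76-fold lower in these controls than in the input. BAR1 over the input in the PrA control (-0.13 ± 0.05) lost its call without replicate 3 of that control (adjusted p = 0.0754), of the basket-containing pores (adjusted p = 0.0545) or without replicate 1 of the input (adjusted p = 0.0596). MFA2 in the GFP control over the input (0.25 ± 0.08) lost it without replicate 3 of that control (adjusted p = 0.0546) or of the input (adjusted p = 0.0631). MFA1 was not called over the input in either control, and in the GFP control was called higher without replicate 2 of that control (0.27) or replicate 3 of the input (0.32).

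Between the controls, the PrA control had MFA2, STE2, BAR1 and AGA1 higher than the GFP control, against 16.1% of all genes, and 0 members lower by edgeR's test, against 16.7%. Of the 3 other members, MFA1 had an unadjusted p of 0.0178 (-0.28 ± 0.11, adjusted p = 0.0527). It was called lower under DESeq2 size factors or upper-quartile factors, and with any of 6 single libraries left out, furthest from 0 at -0.34 without replicate 2 of the GFP control. DESeq2's Wald test called 0 members lower. STE2 was higher by 0.38 ± 0.09, and kept its call with each library left out in turn (0.31 to 0.49). AGA1 was higher by 0.64 ± 0.20, with libraries that overlapped. The calls of MFA2, BAR1 and AGA1 were lost without replicate 1 of the PrA control (0.25, 0.13 and 0.60), replicate 2 of the PrA control (0.24, 0.14 and 0.46) or replicate 2 of the GFP control (0.20, 0.11 and 0.57), and that of AGA1 also without replicate 1 of the GFP control (0.63). Without replicate 3 of the PrA control, AGA1 was 0.83.

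Per kilobase of coding sequence, the order of the levels changed between groups. Coding length was the only divisor, without untranslated parts. The order and span between genes may therefore not be those of transcript numbers. MFA2 was first in all 6 groups, from 185.1 ± 16.6 CPM per kb at basket-containing pores to 792 ± 39.6 in the PrA control. AGA1 was last in both controls and the input, at 14.4 ± 4.18, 9.40 ± 1.08 and 23.4 ± 5.41 CPM per kb, and second at basket-containing pores, at 86.8 ± 5.98. The span from the first to the last gene, in CPM per kb, was 54.8-fold in the PrA control, 70.4-fold in the GFP control and 23.8-fold in the input, but 5.08-fold at basket-containing pores, 10.5-fold at basket-less pores and 6.499-fold with all NPCs. At basket-containing pores, the libraries of BAR1 overlapped those of STE2, those of STE2 overlapped MFA1, and those of MFA1 overlapped STE6, in this order of levels.

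Each gene's own order over the groups differed too. MFA1 was highest in the GFP control, where it overlapped the input, and lowest at basket-containing pores. AGA2 ran from 63.6 ± 1.32 CPM in the PrA control to 9.63 ± 1.52 CPM at basket-containing pores, with no neighbouring groups overlapping. STE2 ranged 4.83-fold, BAR1 1.22-fold and AGA1 9.23-fold between its highest and lowest group means. Basket-containing pores were thus the lowest group for MFA1, MFA2, STE2 and AGA2, and the highest for STE6 and AGA1, although they overlapped all NPCs for MFA1, and both all NPCs and the input for STE6.

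Coding length went with the differences, both among these 7 genes and over the genome. For basket-containing pores over the PrA control, the median log2 fold change of all genes was -1.48 for coding lengths up to 300 bases, -0.75 above 300 and up to 1200, 0.55 above 1200 and up to 3000, and 1.35 above 3000. Spearman's rho of length with log2 fold change was 0.82 over the 7 members and 0.57 over 5773 genes, given as a description over genes of the same libraries. The part of length in any 1 gene's value was not tested, and each member was therefore placed within its own length class.

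Within its class, AGA1 stood high over each control and STE2 changed place. AGA1 lay above 94.2% of the 2416 genes above 1200 and up to 3000 bases at basket-containing pores over the PrA control, above 98.9% at basket-less pores over the GFP control and above 98.4% with all NPCs. STE2, of the same class, lay above 6.42% at basket-containing pores but above 53.8% at basket-less pores and 47.8% with all NPCs. In the direct contrast of basket-containing with basket-less pores STE2 lay above 6.002% of this class and AGA1 above 75.3%. The short mRNAs lay below the middle of theirs at basket-containing pores. Over the PrA control MFA1, MFA2 and AGA2 lay above 30.3, 28.4 and 13.8% of 261 genes of up to 300 bases. In the direct contrast they lay above 39.5, 18.8 and 20.3%. Over the GFP control they lay above 21.8, 58.6 and 29.1% at basket-less pores, and above 17.6, 49.8 and 27.2% with all NPCs. At basket-containing pores over the PrA control STE6 lay above 31.2% of the genes over 3000 bases, below its class median of 1.35.

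**Figure D4:**
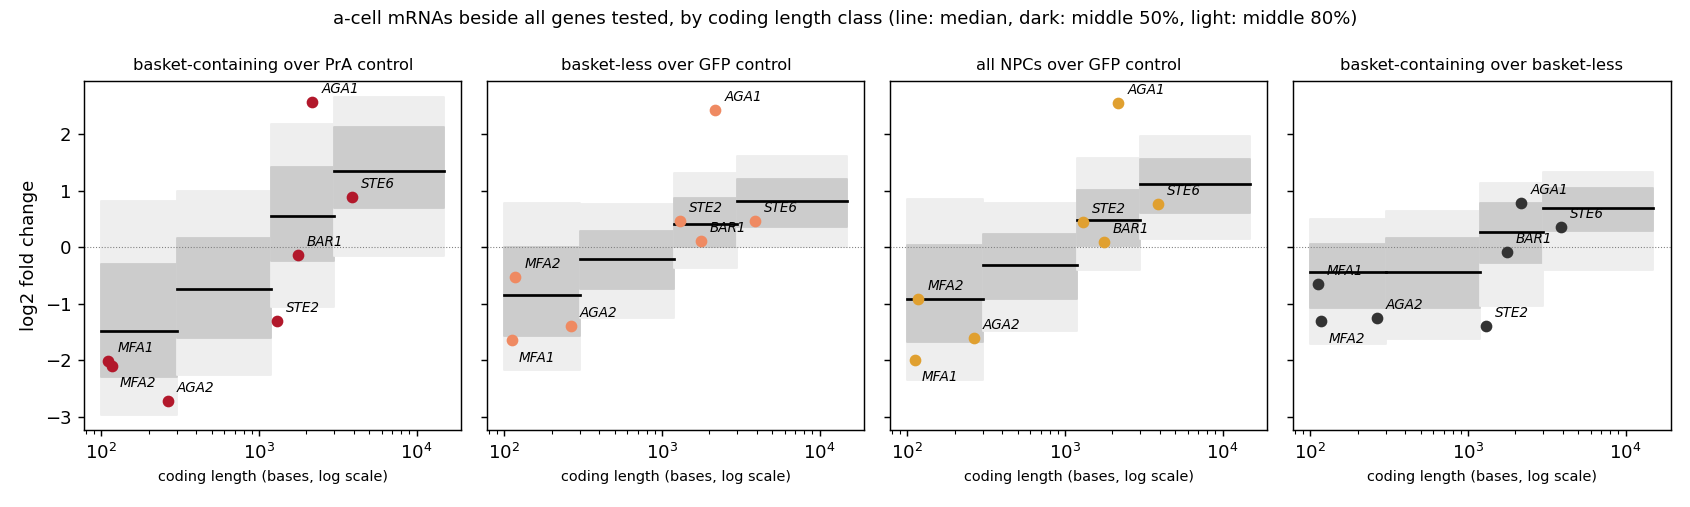
Log2 fold change against coding length (log axis) in 4 comparisons, with the 7 a-cell mRNAs as points over the median (line), middle 50% (dark) and middle 80% (light) of all genes of each length class. AGA1 lies above the middle 80% of its class over each control, and STE2 lies below it at basket-containing pores over the PrA control and over basket-less pores.

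The adjoining genes went either way. MPF1, which faces MFA2 289 bases downstream, was 3.22 ± 0.05 higher on the log2 scale at basket-containing pores over the PrA control, where MFA2 was lower, and YNL146W, upstream of MFA2, was lower at -2.16 ± 0.33. GYP8 and BST1, on either side of STE2, were 0.69 ± 0.06 and 0.21 ± 0.09, where STE2 was lower. PET494, 262 bases downstream of AGA1, was 1.69 ± 0.04 and MVD1, upstream, 0.29 ± 0.04. UBA1, downstream of STE6, was higher at 1.18 ± 0.04, as STE6 was. SNL1, upstream of BAR1, was lower at -1.49 ± 0.09, where BAR1 was nearly level. RPL24A, a ribosomal protein gene 633 bases upstream of AGA2, was lower, as AGA2 was, at -2.46 ± 0.05. TFB3 and CMI8, beside MFA1, were not called (-0.03 ± 0.06 and -0.19 ± 0.21).

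Other genes of the mating pathway were spread in both directions, in this comparison with the background shares of 43.8% and 46.5% given for it. Of 7 genes that process a-factor, 3 were higher and 3 lower at basket-containing pores over the PrA control. The proteases STE23 (1.69 ± 0.05), AXL1 (0.65 ± 0.05) and STE24 (0.54 ± 0.07) were higher. The carboxyl methyltransferase STE14 (-1.61 ± 0.11), the farnesyltransferase subunit RAM2 (-0.96 ± 0.05) and the protease RCE1 (-1.12 ± 0.16) were lower. Of 17 genes of pheromone signalling, 8 were higher and 3 lower, with a median of 0.12. The scaffold STE5 (2.11 ± 0.05), the kinases STE11 (2.20 ± 0.05) and STE20 (1.27 ± 0.04) and the adaptor STE50 (1.28 ± 0.05) had the smallest adjusted p. The lower genes, named after their values were seen, were the kinase FUS3 (-0.88 ± 0.05), the G gamma subunit STE18 (-0.91 ± 0.15) and the phosphatase MSG5 (-0.40 ± 0.06). Of 6 genes of pheromone-induced fusion, 3 were higher and 2 lower. FIG2, an adhesin related to AGA1, was 2.28 ± 0.12 there and 1.73 ± 0.12 at basket-less pores over the GFP control, and shares no 50-base word with AGA1. The same counts for basket-less pores against their control were 4 higher and 2 lower of 7, 9 and 5 of 17, and 3 and 2 of 6, where 47.1% of all genes were higher and 35.5% lower.

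The genes nearest each member in their pattern over the groups were ranked by distance. Likeness was the root mean square distance between log2 CPM means of the 6 groups, each gene centred on its own mean, over 5245 nuclear genes with at least 10 CPM on average. The nearest genes were RPS9A (0.08) and ATP7 (0.08) for MFA1, IPP1 (0.08) and RHO3 (0.08) for MFA2, and RPA12 (0.10) and MTC7 (0.11) for AGA2. They were HPM1 (0.09) and ATC1 (0.10) for STE2, SWT1 (0.08) and YEH2 (0.08) for STE6, RMD1 (0.02) and VPS60 (0.05) for BAR1, and YOR376W-A (0.08) and YNR066C (0.12) for AGA1. Between members the nearest pair was MFA1 with AGA2, at 0.26, and MFA1 with MFA2 lay at 0.45. Only genes outside the 7 were ranked as nearest.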

How the data were processed

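By the submitters' processing notes, the authors used STAR, featureCounts and DESeq2 with the R64 build, and the deposited values are raw counts per gene, 1 column per library. Strandedness, aligner settings and what was done with multi-mapping reads: not given in the sources used here.

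From these counts, edgeR 4.0.16 in R 4.3.3 was run on all 18 libraries at once (filterByExpr, TMM, robust glmQLFit, glmQLFTest, two-sided, 12 residual degrees of freedom). Benjamini-Hochberg adjustment ran over the 6429 genes kept, with calls below 0.05. A standard error is the absolute log2 fold change divided by the square root of F. Sequences, lengths and neighbours come from RefSeq R64, whose names matched 6047 features. The fit was also run on simulated counts with 200 changed genes, and no error rate from that run is given here. Alternatives were DESeq2 1.42.0 size factors and its Wald test, upper-quartile factors, no filter on low counts, a replicate block, only the groups compared, and each library left out. The members, lists and tests were chosen with earlier results of these data known. Named genes are the 7 members, their neighbours, the 2 genes nearest each in pattern, and up to 4 members of each list by smallest adjusted p. STE24, RCE1 and the lower signalling genes were added, chosen after their values were seen.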

Additional observations from a re-analysis of the deposited data

Results flagged for a closer look

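For 5 of the 7 a-cell mRNAs the difference from background was not the same at basket-containing and at basket-less pores, by the test of the difference of differences in the fit over all genes. The same test called 36.6% of all genes higher and 39.5% lower, so this count is not a result about the members as a group. The difference of log2 fold changes, basket-containing pores over the PrA control minus basket-less pores over the GFP control, was -1.78 for STE2, -1.57 for MFA2, -1.32 for AGA2, -0.23 for BAR1 and 0.42 for STE6. Matrix and pore class change together in this contrast and cannot be told apart.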

How the results depend on the processing

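The counts of called members were within 1.5 times the main count in 138 of 144 cases over the settings that keep every library, and in 418 of 432 with 1 library left out. The exceptions were small counts. For basket-less pores over all NPCs the higher count of 1 became 2 under upper-quartile factors and 3 with only the groups compared, and the lower count of 1 became 2 with only the groups compared. With a library left out the higher count ran from 1 to 3. For the PrA control over the GFP control the lower count of 0 became 1 under DESeq2 size factors or upper-quartile factors, and the higher count of 4 became 2 with only the groups compared. With a library left out these ran from 0 to 1 and from 1 to 4, and for the GFP control over the input the higher count of 2 ran from 1 to 2.

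BAR1 changed sign most often, and the cause was not tested. Over the GFP control its log2 fold change at basket-less pores was -0.0185 under DESeq2 size factors, -0.168 under upper-quartile factors, -0.0048 with no filter on low counts, -0.0332 with only the groups compared and -0.0186 by DESeq2's Wald test. With all NPCs the values were -0.0288, -0.194, -0.0041, -0.0368 and -0.0288 in that order. For basket-containing over basket-less pores BAR1 was 0.0507 under DESeq2 size factors, 0.0439 with no filter and 0.0509 by the Wald test, and between basket-less pores and all NPCs -0.00068 with no filter. STE6 at basket-containing pores over the input was -0.327 under upper-quartile factors and -0.0030 with only the groups compared. The difference of differences of BAR1 lost its call under DESeq2 size factors, with no filter and by the Wald test.

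With 1 library left out, these log2 fold changes, none of them called with all libraries, crossed 0. BAR1 ran from -0.0075 to 0.144 at basket-less pores and from -0.0195 to 0.137 with all NPCs over the GFP control, from -0.0917 to 0.0542 for basket-containing over basket-less pores, and from -0.0011 to 0.0178 between basket-less pores and all NPCs. STE6 ran from -0.0426 to 0.0649 at basket-containing pores and from -0.144 to 0.0065 with all NPCs over the input, and from -0.132 to 0.0179 between the controls. MFA1 in the PrA control over the input ran from -0.168 to 0.0389, and the difference of differences of AGA1 from -0.0525 to 0.318. MFA1 has as few as 58 counts in a pore library, which limits its precision.

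Replicates carry the same numbers in each group, but of 33 correlations between same-numbered libraries of different groups only 3 were over 0.1 (range -0.161 to 0.280), so the numbers were not taken as pairing. With the replicate block the log2 fold change of AGA1 at basket-containing pores over the PrA control was 2.58 and that of AGA2 -2.72, and the counts of called members were 2 higher and 5 lower, as without it.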
